A study of Mus musculus with 6 samples.

Results

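The genes described here are 10 genes of transforming growth factor beta (TGF-beta) activation and signaling, Tgfb1, Tgfb3, Lrrc32, Itgb8, Tgfbr1, Tgfbr2, Smad2, Smad3, Smad7 and Skil. They were chosen by their function, as ligands, activators, receptors and SMADs with their brakes, and taken by feature name from tables of 36930 features. Earlier results of these data were known when they were chosen. RNA-Seq was done on Tregs from the BM of 3 naive mice and 3 mice with chronic myeloid leukemia (CML), with 1 library for each mouse. All 6 mice were of the Foxp3-DTR-GFP genotype and 8 weeks of age, and the Foxp3 locus of this strain drives the human diphtheria toxin receptor and GFP, so that naive and CML mice share the reporter. CML was induced by intravenous transfer of LSKs, a stem and progenitor fraction of the BM, after transduction with a BCR-ABL1-GFP retrovirus into recipients that had not been irradiated, whereas naive mice received no leukemia. The leukemic cells of this model also carry GFP, and the gates of the Treg sort for RNA-Seq are not given in the sources used here. No diphtheria toxin treatment is stated for these mice. The data show the mRNA of sorted cells, and a change in the mix of Treg states and a change in the RNA per cell cannot be told apart.

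TGF-beta is made as a latent complex, in which a propeptide encloses the growth factor. Tregs hold this complex on their surface through GARP, the product of Lrrc32, and release the active ligand with the integrin alpha v beta 8, a dimer of the Itgav and Itgb8 products. The active ligand joins the receptors encoded by Tgfbr2 and Tgfbr1. Tgfbr1 then phosphorylates Smad2 and Smad3, which enter the nucleus with Smad4. Smad7 and Skil are induced by the signal and limit it. In Tregs, the pathway is known for its part in Foxp3 induction, in the control of other T cells and in tissue residency.

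The values were read as RPKM, reads scaled by the length of the feature and by the size of the library, so levels of different genes can be compared. Values of 3 mice are given in the order of their replicate numbers. Reads per library, estimated from the step that 1 read makes in the values, were between 5187987 and 9751911 in naive Tregs. They were 7613827, 829181 and 2286190 in CML replicates 1, 2 and 3, so that CML replicate 2 is the least precise library. The Treg genes Foxp3, Cd3e, Cd4, Il2ra, Ctla4, Ikzf2 and Tnfrsf18 were read in every library, with a summed level of 1546 to 2198 RPKM in CML Tregs and 1531 to 1706 RPKM in naive Tregs. The 8 granulocyte markers summed to 8.77, 203.5 and 211 RPKM in CML replicates 1, 2 and 3 and to 23.5 to 53.1 RPKM in naive Tregs, with Ly6g at 0 in all. The 5 erythroid markers summed to 117, 35.6 and 195.5 RPKM in CML replicates 1, 2 and 3 and to 3.27 to 28.2 RPKM in naive Tregs, without overlap. The 5 megakaryocyte and platelet markers summed to at most 1.85 RPKM with CML and 7.77 RPKM without, with Ppbp and Gp1bb at 0 in all libraries. The 5 monocyte and macrophage markers (29.8 to 60.7 RPKM in CML Tregs and 35.6 to 55.4 RPKM in naive Tregs, Fcgr1 at 0), the 4 dendritic cell markers (139 to 162 and 105 to 243 RPKM, Xcr1 at 0) and the 2 CD8 markers (51.1 to 74.2 and 26.2 to 58.7 RPKM) overlapped between the groups in their sums. So did the 2 stem and progenitor markers (0.411 to 2.85 and 0.263 to 2.19 RPKM) and the 3 stromal markers (at most 0.47 RPKM, Cxcl12 and Lepr at 0). The part of any of these cells in the results was not tested.

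In naive Tregs, Tgfb1 had the highest mean level of the 10 genes (83.0 ± 3.16 RPKM, SD, n = 3), followed by Tgfbr2, Skil, Tgfbr1, Smad3, Smad2, Smad7, Lrrc32, Itgb8 and Tgfb3. Neighbors in this order whose libraries overlapped were Tgfbr2 and Skil, Smad3 and Smad2, Smad7 and Lrrc32, and Lrrc32 and Itgb8. In CML Tregs, Skil came first by its mean and Smad2 ninth, below Lrrc32, Itgb8 and Smad7. There, only the steps from Tgfbr1 to Smad3 and from Smad2 to Tgfb3 were free of overlap.

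CML and naive Tregs were compared with limma on log2(RPKM + 1) over the 13923 genes whose mean reached 1 RPKM, and 9 of the 10 genes passed this filter. Tgfb3, with a lower mean, was left out. None of the 9 genes had a Benjamini-Hochberg adjusted p under 0.05, a threshold that 24 of all genes tested passed (0.172%; 0.0431% with higher and 0.129% with lower levels in CML Tregs). At an unadjusted p under 0.05, Skil and Itgb8 were higher in CML Tregs (406 of all genes tested, 2.92%) and Smad2 was lower (942 of all genes tested, 6.77%). In 4 of the 9 genes, Lrrc32, Itgb8, Tgfbr1 and Skil, every CML library lay above every naive library, a pattern seen in 4.84% of all genes tested. In 2 of the 9 genes, Smad2 and Smad3, every CML library lay below every naive library, which 12.2% of all genes tested did. Tgfb1, Tgfbr2 and Smad7 overlapped. The median log2 fold change was 0.04 over the 9 genes and -0.18 over all genes tested, and quantile normalization moved the latter to -0.0068. The background at an unadjusted p under 0.05 in limma also moved with the setting. Quantile normalization gave 742 higher and 757 lower of all genes tested. Without CML replicate 2, there were 840 higher and 917 lower, with a median log2 fold change of -0.032. The shares and medians of all genes tested given below are those of the main fit. With 3 mice against 3, the exact 2-sided permutation test of a single gene cannot give a p below 0.1, and the genes without overlap reached this value.

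**Figure D1:**
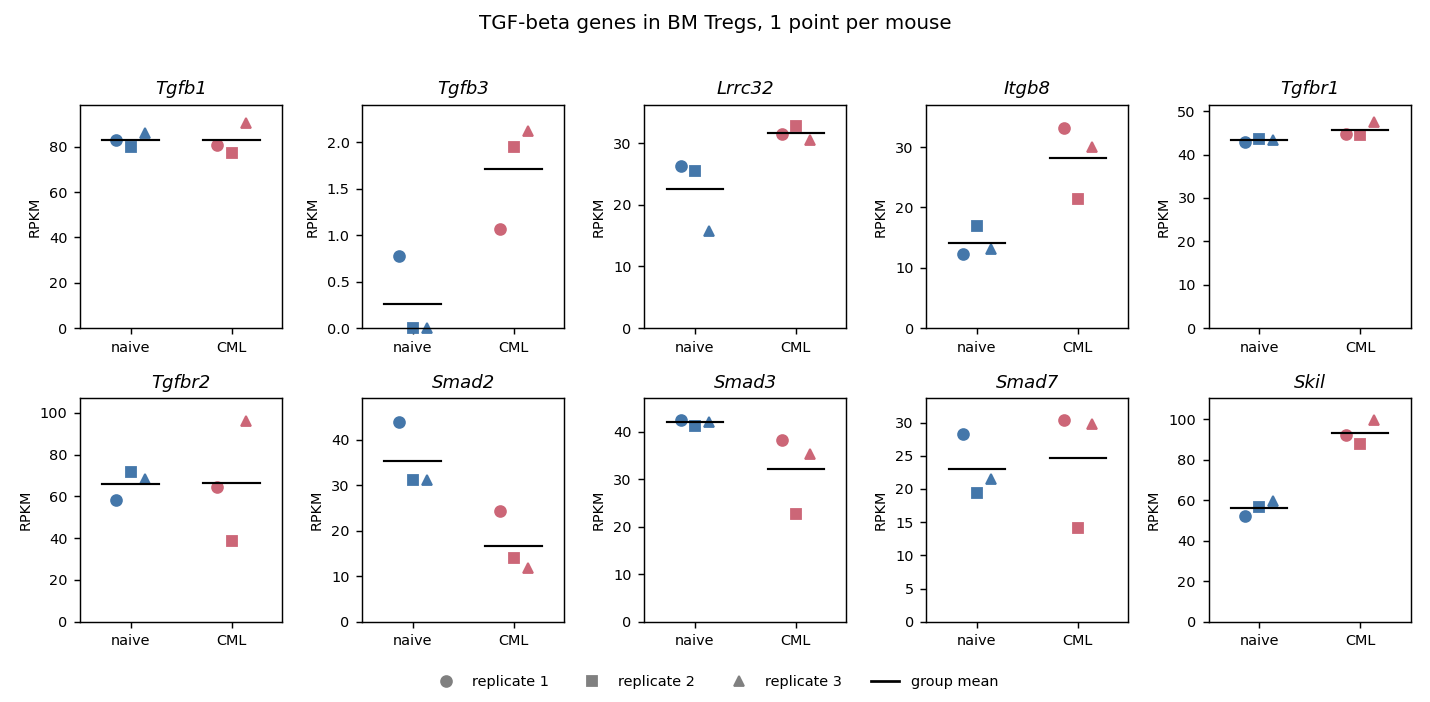
RPKM (vertical axes, from 0) of the 10 genes in the 3 naive and 3 CML mice, with symbols for the replicate numbers of the labels and a line for the group mean. Skil, Itgb8, Lrrc32, Tgfbr1 and Tgfb3 lie higher in every CML mouse, Tgfbr1 by a small margin and Tgfb3 at low levels. Smad2 and Smad3 lie lower in every CML mouse, whereas the means of Tgfb1 are 82.9 and 83.0 RPKM.

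Tgfb1, which encodes the main TGF-beta of lymphocytes, did not differ between the groups beyond the spread of the mice. It was at 81.0, 77.1 and 90.6 RPKM in the CML mice, against 82.8, 79.9 and 86.2 RPKM in the naive mice. The libraries of both groups lay in the same range. In limma its log2 fold change was -0.0038 (95% interval -0.36 to 0.35, limma adjusted p = 0.995), and its sign turned with the scaling between libraries. Over all 6 libraries, the SD of log2(RPKM + 1) was 0.0822, the 34th lowest of the genes tested. The gene lies on chromosome 7 from 25687002 to 25705077 in the GRCm38 build.

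Tgfb3, a second ligand that other cells use in development and wound repair, was close to the limit of these libraries. It had 1.06, 1.95 and 2.12 RPKM in CML replicates 1, 2 and 3, 0.778 RPKM in naive replicate 1, and no reads in naive replicates 2 and 3. Its CML levels lay above the naive ones, including the naive libraries with the most reads. With the longest annotated transcript of 3383 bases, these levels correspond to about 27, 5.5 and 16 reads in the CML libraries and 14 reads in naive replicate 1. These numbers are estimates and cover counting error only. In a fit without the filter, the log2 fold change of Tgfb3 was 1.14 (95% interval 0.28 to 1.99, limma adjusted p = 0.426). The gene lies on chromosome 12 from 86056745 to 86079041.

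Of the 14 genes of ligands and latency proteins in the pathway list, 3 passed the filter. With limma, 0 of the 3 passed an adjusted p of 0.05. At an unadjusted p under 0.05, 1 of them, Bmp7, was higher, as were 2.92% of all genes tested. The median log2 fold change of the 3 was -0.0038, beside -0.18 for all genes tested. Tgfb2 was listed at 0 in all libraries. Ltbp3, which binds latent TGF-beta to the matrix, had at most 0.347 RPKM in a naive library and was listed at 0 in all CML libraries.

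Of the genes that hold and release the latent ligand, Lrrc32 and Itgb8 had higher levels in all CML mice. Lrrc32, which encodes the GARP anchor, was at 31.5, 32.7 and 30.5 RPKM in the CML mice, against 26.3, 25.5 and 15.8 RPKM in the naive mice. The CML libraries were close together, whereas naive replicate 3 lay well below the other naive libraries. The log2 fold change was 0.50 (95% interval -0.095 to 1.10, limma adjusted p = 0.575), and 0.28 without naive replicate 3. Lrrc32 lies on chromosome 7 from 98489283 to 98502181.

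Itgb8, which encodes the integrin chain that pairs only with alpha v and frees TGF-beta from its latent complex, was at 33.2, 21.5 and 29.997 RPKM in the CML mice. In the naive mice it was at 12.3, 17.0 and 13.0 RPKM. The groups did not overlap, and CML replicate 2 was nearest to the naive libraries. The means were 28.2 ± 6.08 RPKM with CML and 14.1 ± 2.51 RPKM without (SD, n = 3), a log2 fold change of 0.94 (SE 0.28, limma adjusted p = 0.32). Leaving out single mice gave 0.82 to 1.12. Itgb8 lies on chromosome 12 from 119158022 to 119238802. The 250 bases before its start in RefSeq (chr12:119238277-119238526, minus strand, GRCm38.p6) are shown together with those of Smad3 (chr9:63757995-63758244, minus strand, GRCm38.p6), as examples of a gene with higher and a gene with lower levels in CML Tregs. The start of Itgb8 in RefSeq lies inside the gene as GENCODE M21 places it above, so its window is not upstream of the GENCODE gene, whereas that of Smad3 is. Capitals mark CAGAC, the short sequence that SMAD proteins bind, which was searched on both strands (GTCTG on the other).
Itgb8: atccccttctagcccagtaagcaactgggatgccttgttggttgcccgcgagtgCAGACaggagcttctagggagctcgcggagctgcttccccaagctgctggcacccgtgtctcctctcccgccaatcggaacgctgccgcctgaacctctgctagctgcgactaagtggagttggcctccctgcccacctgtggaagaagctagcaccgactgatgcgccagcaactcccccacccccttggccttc
Smad3: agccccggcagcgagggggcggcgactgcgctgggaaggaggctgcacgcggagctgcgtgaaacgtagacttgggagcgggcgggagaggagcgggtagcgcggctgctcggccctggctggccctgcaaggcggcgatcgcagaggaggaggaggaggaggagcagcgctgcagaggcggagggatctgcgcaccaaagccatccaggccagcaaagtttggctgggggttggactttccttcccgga
Itgb8 held 1 match and Smad3 0, and 42.2% of the 32851 RefSeq windows of this length held at least 1. The promoter table had entries for 5 of the 10 genes, and Tgfb3, Lrrc32, Smad2, Smad7 and Skil had none. Of the others with entries, Tgfb1 held 0 matches and Tgfbr2 held 1. Tgfbr1 held 0 at its first start and 1 at a later start.

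Itgav, the partner chain of Itgb8, was at 62.9, 45.4 and 82.6 RPKM in the CML mice, against 36.2, 28.7 and 37.0 RPKM in the naive mice. The groups did not overlap (log2 fold change 0.85, 95% interval 0.26 to 1.45, limma adjusted p = 0.331). Itgb3, another partner of alpha v, had 71.0, 39.1 and 41.4 RPKM in the CML mice, against 29.4, 27.9 and 28.0 RPKM in the naive mice, again without overlap (log2 fold change 0.76, 95% interval 0.15 to 1.36, limma adjusted p = 0.421). Without CML replicate 1, the log2 fold change of Itgb3 was 0.49. Platelets also carry this chain, and their part was not tested. Itgb5 had at most 2.22 RPKM, and Itgb6 was listed at 0 in all libraries.

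Itgb1 was the only gene of the pathway lists with an adjusted p under 0.05. It encodes the beta 1 chain, which pairs with alpha v and with many other alpha chains, and it is better known for adhesion to matrix and stroma than for TGF-beta release. Itgb1 was at 85.8, 84.5 and 79.7 RPKM in the CML mice, against 192, 246 and 202 RPKM in the naive mice. It fell to levels that lay close together in CML Tregs, with a mean 2.56-fold lower than in naive Tregs (log2 fold change -1.34, SE 0.16, limma adjusted p = 0.0356). The adjusted p was no longer under 0.05 in any fit that left out a library (0.056 to 0.239), and with the replicate number as a block it was 0.149.

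Nrp1, a surface receptor that binds latent TGF-beta and marks Tregs from the thymus, was at 72.9, 76.2 and 70.4 RPKM in the CML mice, against 138, 131 and 129 RPKM in the naive mice. The groups lay far apart relative to their spread, but the adjusted p was above the threshold (log2 fold change -0.85, 95% interval -1.18 to -0.52, limma adjusted p = 0.0968). Over all alternative fits it lay between 0.0536 and 0.424. Ikzf2 encodes Helios, which the study stained beside neuropilin-1 as a marker of thymic origin. It was at 291, 237 and 288 RPKM in the CML mice, against 234, 247 and 262 RPKM in the naive mice, with overlap. Ikzf2 thus did not follow Nrp1, and the share of Tregs from the thymus was not tested here. Of the 15 genes for anchors and activators, 11 were tested, of which 0 were higher and 1, Itgb1, was lower at an adjusted p under 0.05 with limma. At an unadjusted p under 0.05, 3 of the 11 were higher and 2 lower, whereas 2.92% of all genes tested were higher and 6.77% lower. The median log2 fold change of this list was 0.34, beside -0.18 for all genes tested. Nrros, an anchor of myeloid cells (log2 fold change -0.16, limma adjusted p = 0.886), and Furin, the protease that cuts the TGF-beta precursor (log2 fold change 0.30, limma adjusted p = 0.734), overlapped between the groups. Without CML replicate 3, Furin was at a log2 fold change of 0.043, and without CML replicate 2 Nrros was at 0.14. Thbs1 had at most 0.897 RPKM.

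**Figure D2:**
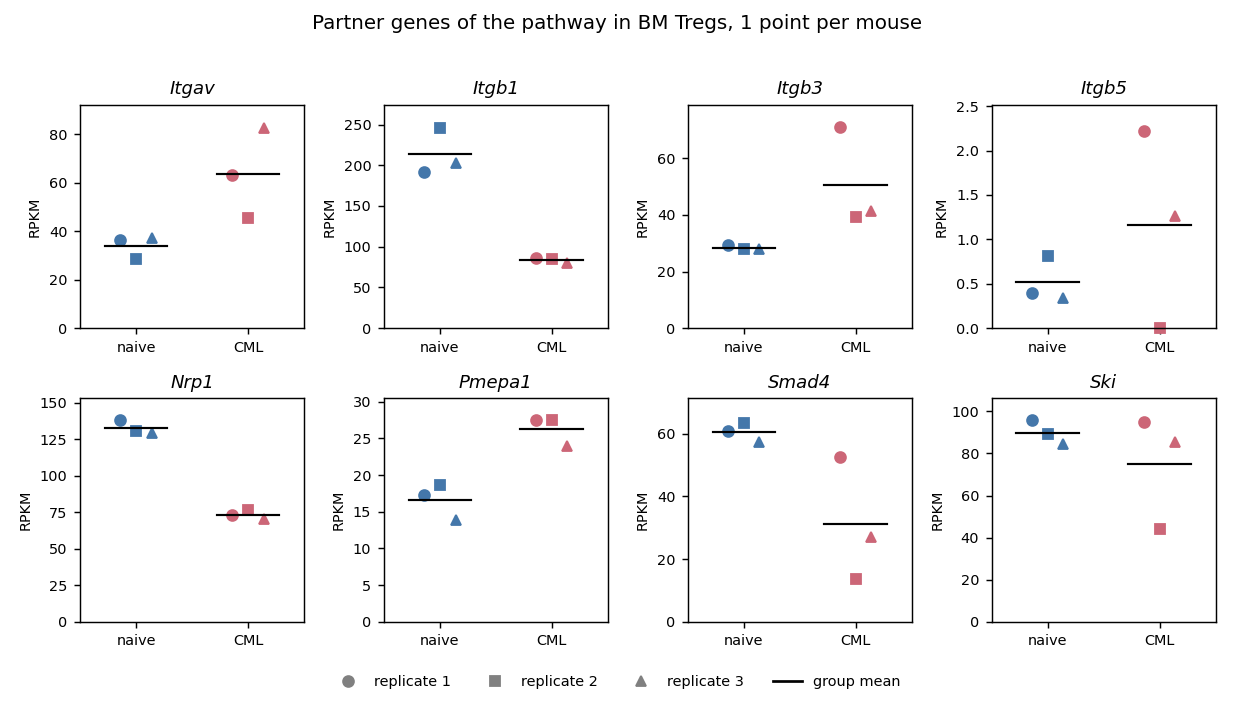
RPKM (vertical axes, from 0) of 8 partner genes in the 3 naive and 3 CML mice, drawn as in the plot of the 10 genes. Itgav, Itgb3 and Pmepa1 lie higher and Itgb1, Nrp1 and Smad4 lower in every CML mouse, whereas Ski overlaps and Itgb5 stays at or below 2.22 RPKM.

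Tgfbr1, the kinase that starts the signal, was among the steadiest genes of the data. It was at 44.8, 44.6 and 47.5 RPKM in the CML mice, against 42.9, 43.7 and 43.3 RPKM in the naive mice. The CML libraries lay above the naive libraries by a small margin. Over all 6 libraries, the SD of log2(RPKM + 1) was 0.0512, the second lowest of the 13923 genes tested. It had a log2 fold change of 0.07 (95% interval -0.32 to 0.47, limma adjusted p = 0.901). Tgfbr1 lies on chromosome 4 from 47353222 to 47414931.

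Tgfbr2, the receptor that binds the ligand, was at 64.4, 38.8 and 96.1 RPKM in the CML mice, against 58.1, 71.6 and 68.4 RPKM in the naive mice. CML replicate 2 was below and CML replicate 3 above all naive libraries, so the mean of the CML group (66.4 ± 28.7 RPKM, SD, n = 3) hides a wide spread. The log2 fold change was -0.08 (95% interval -0.80 to 0.65, limma adjusted p = 0.946), and 0.26 without CML replicate 2. Tgfbr2 lies on chromosome 9 from 116084293 to 116175360. Of the 11 receptor genes of the list, 8 were tested and 0 passed an adjusted or an unadjusted p of 0.05 with limma (median log2 fold change -0.14). Tgfbr3, a co-receptor, had a mean of 1.39 RPKM with CML and 3.34 RPKM without, with overlapping libraries (log2 fold change -0.98, limma adjusted p = 0.646; -0.44 without CML replicate 2).

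**Figure D3:**
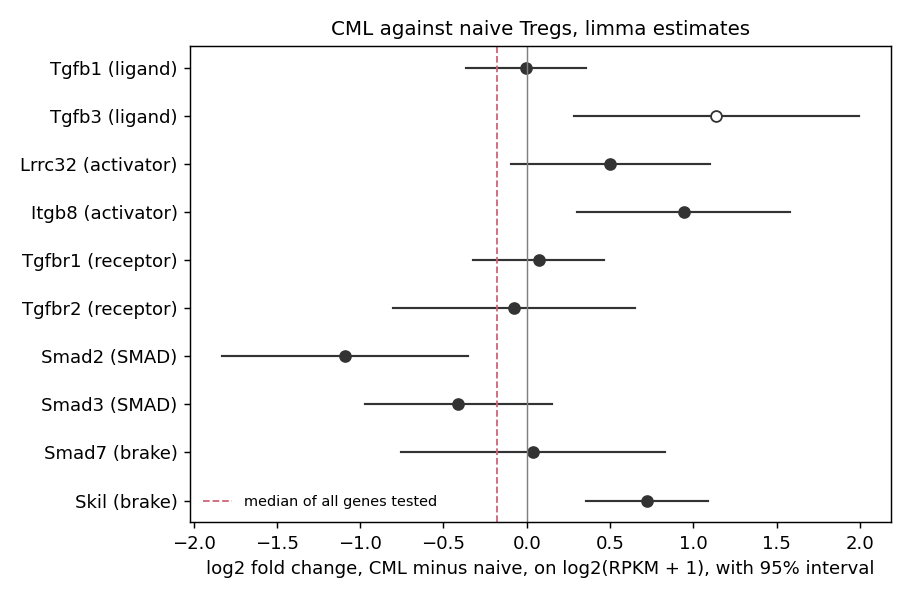
Log2 fold change (horizontal axis, CML minus naive, on log2(RPKM + 1)) of the 10 genes, ordered by role, with 95% intervals from limma. The open point, Tgfb3, comes from the fit without a filter, and the dashed line is the median of all genes tested (-0.18). The intervals of Itgb8, Skil and Tgfb3 lie above 0 and that of Smad2 below 0.

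Smad2 and Smad3, the SMADs that the TGF-beta receptor phosphorylates, had lower levels in all CML mice. Smad2 was at 24.3, 14.0 and 11.7 RPKM in the CML mice, against 43.8, 31.2 and 31.1 RPKM in the naive mice. The highest CML library was below the lowest naive library. The naive mean was 2.13 times the CML mean (log2 fold change -1.09, 95% interval -1.83 to -0.35, limma adjusted p = 0.32). Leaving out single mice gave -1.38 to -0.89. CML replicates 2 and 3 had the lowest Smad2 levels, the fewest reads and the highest granulocyte marker sums, and the part of these in the result was not tested. Smad2 lies on chromosome 18 from 76241580 to 76310963.

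Smad3 was at 38.2, 22.6 and 35.3 RPKM in the CML mice, against 42.5, 41.1 and 42.1 RPKM in the naive mice. The naive libraries were nearly equal, and CML replicate 2 lay far below the other CML libraries. This gave a log2 fold change of -0.41 (95% interval -0.97 to 0.15, limma adjusted p = 0.615), and -0.19 without CML replicate 2. Smad3 lies on chromosome 9 from 63646767 to 63757994.

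Smad4, the common partner of these SMADs, was at 52.6, 13.6 and 27.1 RPKM in the CML mice, against 60.7, 63.4 and 57.2 RPKM in the naive mice. The groups did not overlap, and CML replicate 1 was close to the naive libraries while CML replicate 2 was far below them (log2 fold change -1.13, 95% interval -2.12 to -0.15, limma adjusted p = 0.46). It was -0.66 without CML replicate 2. Of the 20 genes in the list of signal-transducing SMADs and their partners, 18 were tested, and 0 passed an adjusted p of 0.05 with limma. At an unadjusted p under 0.05, 0 were higher and 2 were lower, Smad2 and Smad4, beside 2.92% and 6.77% of all genes tested. In 6 of the 18, the CML libraries lay below the naive libraries without overlap, as in 12.2% of all genes tested. The median log2 fold change was -0.20, beside -0.18 for all genes tested.

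Skil, which encodes the SnoN protein that binds SMADs and silences their targets, had the lowest unadjusted p of the 10 genes. It was at 92.2, 87.7 and 99.7 RPKM in the CML mice, against 52.2, 56.6 and 59.5 RPKM in the naive mice. The groups were separated by a gap wider than the range of either. The mean was 1.66-fold higher with CML (93.2 ± 6.03 and 56.1 ± 3.72 RPKM, SD, n = 3), a log2 fold change of 0.72 (SE 0.16, 95% interval 0.35 to 1.09, limma unadjusted p = 0.00197, adjusted p = 0.208). Leaving out single mice gave 0.67 to 0.77, and the adjusted p lay between 0.115 and 0.591 over all alternative fits. Skil lies on chromosome 3 from 31095058 to 31122577.

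Smad7, the inhibitory SMAD that blocks the receptor, was at 30.4, 14.1 and 29.7 RPKM in the CML mice, against 28.3, 19.4 and 21.6 RPKM in the naive mice. CML replicate 2 was the lowest of all libraries and CML replicates 1 and 3 the highest. The log2 fold change was 0.04 (95% interval -0.75 to 0.83, limma adjusted p = 0.978), and 0.38 without CML replicate 2. In CML replicate 2, the Smad7 level corresponds to about 50 reads. Smad7 lies on chromosome 18 from 75367529 to 75395935.

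Of the 20 genes in the list of brakes, 17 were tested and 0 passed an adjusted p of 0.05 with limma. At an unadjusted p under 0.05, 2 were higher, Skil and Pmepa1, and 2 were lower, Wwp1 and Tgif1, beside 2.92% and 6.77% of all genes tested (median log2 fold change of the list -0.092, of all genes tested -0.18). Pmepa1, a membrane protein that keeps SMADs from the receptor and is itself induced by TGF-beta, was at 27.5, 27.5 and 23.9 RPKM in the CML mice, against 17.3, 18.6 and 13.9 RPKM in the naive mice. The groups did not overlap (log2 fold change 0.64, 95% interval 0.087 to 1.19, limma adjusted p = 0.46). Ski, the close relative of Skil, had a mean of 74.8 RPKM with CML and 89.7 RPKM without, with overlap (log2 fold change -0.33, 95% interval -0.99 to 0.33, limma adjusted p = 0.711). Whether Skil and Ski differ in their response was not tested. Smurf1 and Smurf2, ubiquitin ligases that act on SMADs and receptors, overlapped between the groups (log2 fold changes -0.55 and -0.54, limma adjusted p = 0.66 and 0.704). Without CML replicate 2, they were at -0.24 and -0.057, and Ski was at 0.0053. Smad6 was listed at 0 in all libraries.

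The list of 10 genes that TGF-beta induces in T cells shares Tgfb1, Smad7 and Skil with the genes above. Of these 10, 9 were tested, 0 passed an adjusted p of 0.05 with limma, and 2, Skil and Pmepa1, were higher at an unadjusted p under 0.05, as were 2.92% of all genes tested (median log2 fold change 0.22, beside -0.18 for all genes tested). Itgae, the alpha E integrin chain and a common readout of TGF-beta in T cells, was at 47.9, 50.6 and 33.5 RPKM in the CML mice, against 31.7, 39.0 and 34.4 RPKM in the naive mice. CML replicate 3 lay among the naive libraries (log2 fold change 0.30, 95% interval -0.22 to 0.83, limma adjusted p = 0.689; 0.48 without CML replicate 3 and 0.19 without CML replicate 2). Ldlrad4, a membrane brake of the same kind as Pmepa1, was lower in every CML library (28.7 ± 4.66 and 38.8 ± 2.19 RPKM, SD, n = 3; log2 fold change -0.43, limma adjusted p = 0.564), so the members of this list did not share a direction.

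Ratios between 2 genes of a library do not move with the scaling between libraries, and 5 were compared. The ratio of Skil to Smad3 was 2.41, 3.87 and 2.83 in CML replicates 1, 2 and 3, and 1.23, 1.38 and 1.41 in naive replicates 1, 2 and 3. It was 2.23-fold higher in CML Tregs on the log scale, without overlap (exact 2-sided permutation test, p = 0.1, Benjamini-Hochberg adjusted over the 5 ratios p = 0.25). Skil alone was higher and Smad3 alone lower in every CML library, so this ratio could not overlap. Its raw p was thereby fixed and adds nothing to the results of the single genes. The ratio of Lrrc32 to Tgfb1, of the anchor to its ligand, was 0.388, 0.424 and 0.337 in CML Tregs and 0.318, 0.319 and 0.183 in naive Tregs, again without overlap (exact 2-sided permutation test, p = 0.1, adjusted p = 0.25). The log2 difference was 0.53, and 0.26 without naive replicate 3. Both p-values are at the smallest raw value that the design allows.

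The ratio of Itgb8 to Itgav, the chains of the activating integrin, was 0.528, 0.473 and 0.363 in CML Tregs and 0.34, 0.591 and 0.352 in naive Tregs. The groups overlapped in full, with a log2 difference of 0.12 between means with SDs of 0.28 and 0.45 (exact 2-sided permutation test, p = 0.8). The ratio of Tgfbr2 to Tgfbr1 differed by -0.16 on the log2 scale (exact 2-sided permutation test, p = 0.8), and CML replicates 2 and 3 held its extremes, 0.869 and 2.03. The ratio of Smad7 to Smad3 was 0.794, 0.624 and 0.844 in CML Tregs and 0.665, 0.472 and 0.512 in naive Tregs, with overlap in CML replicate 2 (log2 difference 0.46, exact 2-sided permutation test, p = 0.2, adjusted p = 0.333).

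**Figure D4:**
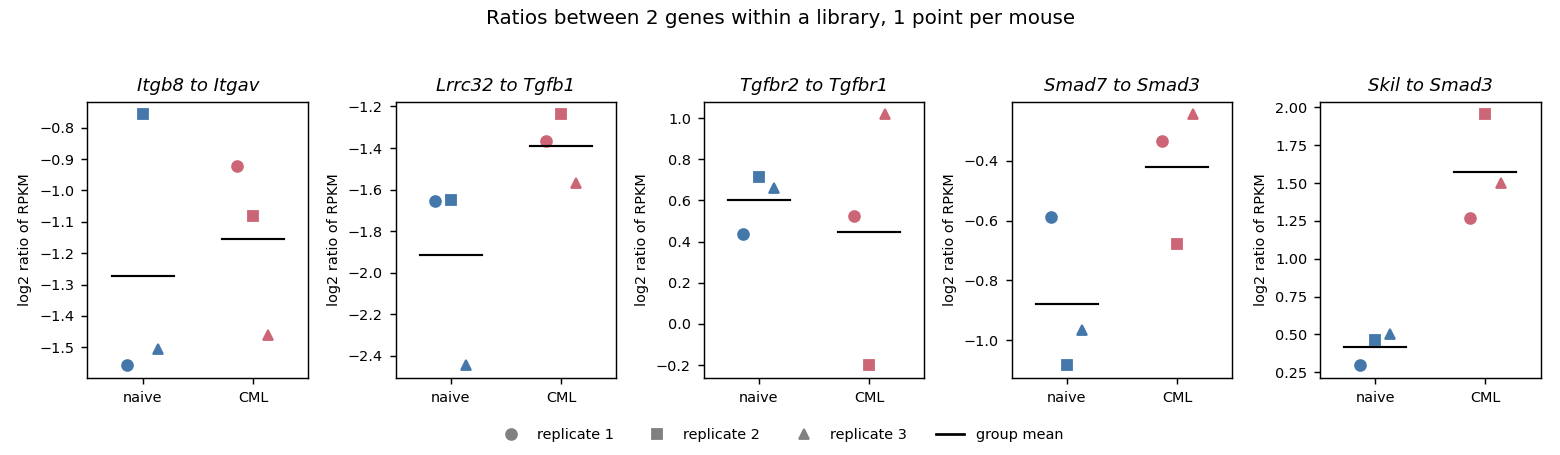
Log2 ratio of the RPKM of 2 genes within each library (vertical axes, which do not start at 0) for 5 pairs, with 1 point for each of the 3 naive and 3 CML mice and a line for the group mean. The groups are apart for Lrrc32 to Tgfb1 and for Skil to Smad3, and overlap for the other 3 pairs.

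Over the 93 genes of the pathway lists together, 67 were tested, and limma called 0 higher and 1 lower in CML Tregs at an adjusted p under 0.05. At an unadjusted p under 0.05, 8 of the 67 were higher and 6 lower, whereas 2.92% of all genes tested were higher and 6.77% lower. The last 2 shares hold for the main fit and were not stable without CML replicate 2 or with quantile normalization. Skil, Itgb8, Itgav, Itgb3, Pmepa1, Bmp7 and Itgb1 are also among the genes that the study selected on these same samples, so their direction here is not independent evidence.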

How the data were processed

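FACS-purified BM Tregs of 3 naive and 3 CML mice were profiled with the SMART-Seq v4 kit in single-end reads on a NextSeq instrument. Assembly in SeqMan NGen and analysis in ArrayStar were done by the authors. The submitters' processing notes name the builds GRCm38 and mm10, and the annotation is not given in the sources used here. The deposited values were read as RPKM, since they are not whole and their sums differ between libraries (669761 to 815919). The paper's text does not name the unit. A deposited value of 0.001 marks features without reads and was set to 0. Repeated names (41) were kept as separate features. Because the values are not counts, the count test named in the study's methods (DESeq2) was not run.

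Reads per library were estimated from the smallest product of RPKM and length that recurred at least 5 times within 0.5% among 1297 microRNA and small nucleolar RNA genes. Of the other products up to 20 steps, 32.0% to 59.0% lay within 0.05 of a whole number, against 10% by chance. Reads per gene assume the longest GENCODE M21 transcript.

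The test was limma 3.58.1 (lmFit, eBayes with a trend; R 4.3.3) on log2(RPKM + 1) for genes whose mean reached 1 RPKM, without a replicate block, with Benjamini-Hochberg adjustment over all 13923 genes. This scale makes the fold changes of low genes too small. The fit was tested on simulated data. Ratios and single genes were compared with exact 2-sided permutation tests in Python 3.11.15 with scipy 1.17.1. Gene coordinates are those of GENCODE M21 and promoter sequences those of RefSeq (GRCm38.p6).

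The 10 genes and the pathway and marker lists were chosen with earlier results of these data known. The result of 1 marker list is not reported here. Named genes are the 10 genes, 21 partner genes named whatever their values, and any other list gene at an adjusted p under 0.05. Wwp1, Tgif1, Bmp7 and, apart from Acvr1b, the genes named only in the closing section were chosen after their values were seen. Acvr1b is among the 21 partner genes. The alternatives cover the pseudocount, the filter, the scaling, each library left out, the replicate block, the variance trend, library weights and small features left out.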

Additional observations from a re-analysis of the deposited data

How the results depend on the processing

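None of the 9 tested genes passed an adjusted p of 0.05 in any of the 16 alternative fits, and the number of them with a higher level in CML Tregs was 5 with the values as reported and 4 to 7 over the fits that left out a library. Itgb1, the 1 pathway gene called, was lost (0 genes) with a pseudocount of 0.001, without a filter on low values, with the replicate block, without the variance trend, and without any 1 library (0 to 0 genes). Its log2 fold change stayed between -1.41 and -1.23 in the latter. The sign of Tgfb1 turned with quantile normalization (0.042) and with the same 75th percentile (0.066), and over left-out libraries it ran from -0.069 to 0.046. Tgfbr2 turned with library weights (0.00031) and ran from -0.39 to 0.26. Smad7 ran from -0.14 to 0.38, Nrros from -0.41 to 0.14 and Ski from -0.54 to 0.0053. The log2 ratio of Tgfbr2 to Tgfbr1 ran from -0.44 to 0.17 and that of Itgb8 to Itgav from -0.023 to 0.38. Of these, Tgfb1, Tgfbr2, Nrros, Ski and the ratio of Tgfbr2 to Tgfbr1 turned without CML replicate 2. Tgfb1 also turned without CML replicate 1 (0.011) and without naive replicate 3 (0.024). Smad7 turned without CML replicate 1 (-0.14), CML replicate 3 (-0.13), naive replicate 2 (-0.073) or naive replicate 3 (-0.00048). The ratio of Itgb8 to Itgav turned without naive replicate 1 (-0.023). The number of ratios without overlap was 2 with the values as reported, 2 with a pseudocount of 1 RPKM, and 2 to 3 without 1 library. The causes were not tested.

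The replicate numbers name different mice, and libraries with the same number did not deviate together (Pearson r across genes -0.0048, -0.0016 and -0.019). With the replicate block, 1 of all genes tested passed an adjusted p of 0.05, compared with 24 without it and 53 with quantile normalization or the same 75th percentile. With a pseudocount of 0.001 it was 0 (380 higher and 815 lower at an unadjusted p under 0.05), and 45 with library weights. Depth limits Tgfb3 and all values of CML replicate 2.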

Other observations

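Bmp7, a ligand of the BMP branch of the TGF-beta family, was at 31.1, 46.6 and 35.2 RPKM in the CML mice, against 20.6, 20.5 and 20.6 RPKM in the naive mice. The naive libraries were nearly equal, and all CML libraries lay above them (log2 fold change 0.82, 95% interval 0.29 to 1.36, limma adjusted p = 0.301). Inhba, Inhbb, Mstn, Bmp2 and Bmp4 were listed at 0 in all libraries. Acvr1b, an activin receptor that also signals through Smad2 and Smad3, had 6.75, 1.59 and 7.49 RPKM in the CML mice, against 8.89, 15.5 and 10.4 RPKM in the naive mice, without overlap (log2 fold change -1.15, 95% interval -2.39 to 0.095, limma adjusted p = 0.548). Without CML replicate 2 it was -0.60. Smad1 and Smad5, the SMADs of the BMP branch, overlapped between the groups (log2 fold changes 0.06 and -0.61, limma adjusted p = 0.975 and 0.697). Smad5 was at 16.1, 16.0 and 4.55 RPKM in the CML mice, and leaving out single mice gave -0.88 to -0.069.

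Among 9 genes that TGF-beta restrains in T cells, 7 were tested, and 0 passed an adjusted p of 0.05 with limma, although 2, Gzmb and Tbx21, were higher at an unadjusted p under 0.05, as were 2.92% of all genes tested (median log2 fold change of the list 0.04, beside -0.18 for all genes tested). Gzmb, which encodes the cytotoxic protease granzyme B, was at 123, 112 and 178 RPKM in the CML mice, against 6.74, 15.02 and 31.2 RPKM in the naive mice. All CML libraries lay far above the naive libraries (log2 fold change 3.10, 95% interval 1.99 to 4.21, limma adjusted p = 0.0729). Tbx21, the T-bet transcription factor, had 20.04, 17.4 and 21.7 RPKM in the CML mice, against 5.93, 8.59 and 12.4 RPKM in the naive mice (log2 fold change 1.10, limma adjusted p = 0.346). Gata3, at means of 122 and 120 RPKM, overlapped between the groups (log2 fold change 0.007, limma adjusted p = 0.991). Of the 7 tested genes, 5 had a positive log2 fold change. Fasl (-1.24, limma adjusted p = 0.678) and Myc (-0.41, limma adjusted p = 0.639) had negative ones, with overlapping libraries. Fasl was at 8.50 RPKM in CML replicate 1, above 4.42, 4.54 and 3.18 RPKM in the naive mice. It was at 0 in CML replicates 2 and 3, the libraries with the fewest reads. Eomes, not tested for its low mean, had 0.144, 0 and 0 RPKM in the CML mice. In the naive mice it had 1.18, 1.13 and 0.483 RPKM, without overlap. These levels correspond to about 3.9, 0 and 0 reads in the CML libraries and 22, 35 and 17 reads in the naive libraries. Eomes was thus close to the limit of these libraries.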
